A study of Mus musculus with 6 samples.

Results

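The genes described are 6 that endothelial cells (ECs) regulate with, or use to sense, the flow of blood: Klf2, Klf4, Nos3, Thbd, Cyp1b1 and Piezo1, out of 31053 in the count matrices. All 6 genes were present in all 6 libraries. They were followed in 32105 ECs, defined as cells with at least 2 UMIs of Pecam1 and Cdh5 together, of 63659 barcodes, of which 59793 passed the limits on mitochondrial share and gene number. A UMI (unique molecular identifier) marks 1 captured RNA molecule.

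Mouse lung cells were profiled by droplet sequencing of 3′ ends. Lungs of Cxcl12DsRed/+ animals, in which the DsRed reporter replaces 1 copy of the chemokine gene Cxcl12, were dissociated with collagenase, dispase and DNase at 4 ages (E, embryonic day; P, postnatal day), which were E13.5 and E15.5, then E18.5, and P8 after birth, and reporter-positive cells lacking EpCAM and CD45 were sorted from several pooled lungs. The gate named for the data takes CD31-positive cells, while the protocol adds that CD31-negative reporter-positive cells were collected as well. A further pair of E18.5 libraries was made from more than 1 lung each, labelled as Cxcl12 homozygous null (Cxcl12DsRed/DsRed) and Cxcl12 heterozygous control (Cxcl12DsRed/+). The paper describes these as whole lungs, whereas the labels carry the sorting text for them too, and all 6 libraries share at least 1 reporter allele. The sort sees cells that use the Cxcl12 promoter, so the sorted ECs are reporter-positive ECs and not all ECs of the lung. Strain background was not given in the labels.

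Each condition had 1 library, so no test across animals was possible and no p-value is given. The 95% intervals printed are exact Poisson intervals for levels and exact Clopper-Pearson intervals for shares of cells, and both cover counting error only. Levels are UMIs of a gene summed over the cells of a group, per 1000000 UMIs of that group (CPM). A sum of this kind cannot tell a larger number of expressing cells from more RNA per expressing cell.

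In order of age the sorted libraries held 210, 9453, 9119 and 8259 ECs, and there were 2022 and 3042 in the whole lungs labelled control and null. Library totals lay between 63746333 and 117522172 UMIs, and the median EC held 5667 to 8924 UMIs. The E13.5 library was mostly mesenchymal and only 1.65% of its kept cells were ECs. All 6 endothelial markers (Cldn5, Egfl7, Ramp2, Emcn, Tek and Eng) were detected in the ECs of every library, with a summed level of 4157 to 10865 CPM. The 8 mesenchymal markers summed to 1225, 507, 198 and 39.6 CPM in ECs from E13.5 to P8, and to 570 and 833 CPM in the whole lungs labelled control and null. From E13.5 to P8 the epithelial Sftpc had 0.555, 4.57, 447 and 382 CPM in ECs. The other epithelial markers did not exceed 6.94 CPM there. The erythroid Hbb-bs had 8.32, 280, 730 and 528 CPM, and Top2a of cycling cells 200, 176, 72.4 and 54.2 CPM. The targeted gene went against the labels. Cxcl12 stood at 4.24 CPM in ECs of the library labelled control and at 499 CPM in ECs of the library labelled null. The sorted ECs had 720 to 1210 CPM. The names under which these 2 data sets were deposited also carry the genotypes the other way round. The genotype of these 2 libraries is therefore given as labelled throughout, and no direction between genotypes is drawn. The whole-lung libraries had 140 cell barcodes in common, against 20 to 54 for other pairs.

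KLF2 and KLF4 are zinc-finger transcription factors that ECs produce under steady laminar flow. Shear at the cell surface, sensed by junctional proteins and by channels such as PIEZO1, is passed through the kinases MEKK3, MEK5 and ERK5 to MEF2 factors, which switch on Klf2 and Klf4. These in turn raise genes of a quiescent vessel wall. Nos3 encodes endothelial nitric oxide synthase, which makes the vasodilator nitric oxide, and Thbd encodes thrombomodulin, which turns thrombin into an activator of the anticoagulant protein C. Cyp1b1 encodes a cytochrome P450 enzyme that is used as a marker of laminar flow. Both Klf2 and Klf4, like Fos and Jun, are also immediate-early genes that can be induced while tissue is dissociated.

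The 250 bases upstream of the RefSeq start of Klf2 and of Klf4 are shown, since both genes are read by their transcription and the MEF2 route to them runs through such sequence. They come from RefSeq on GRCm38.p6, which held 4 of the 6 genes. Klf2 is at chr8:72318812-72319061 on the plus strand, and Klf4 at chr4:55532476-55532725 on the minus strand. Capitals mark a match to CTA and TAG with any 4 bases between them, the core letters to which MEF2 factors bind.
Klf2: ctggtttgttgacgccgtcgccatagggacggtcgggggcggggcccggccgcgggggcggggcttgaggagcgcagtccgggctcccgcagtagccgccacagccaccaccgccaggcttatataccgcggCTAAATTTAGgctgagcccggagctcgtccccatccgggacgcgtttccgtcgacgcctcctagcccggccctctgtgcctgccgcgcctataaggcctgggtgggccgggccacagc
Klf4: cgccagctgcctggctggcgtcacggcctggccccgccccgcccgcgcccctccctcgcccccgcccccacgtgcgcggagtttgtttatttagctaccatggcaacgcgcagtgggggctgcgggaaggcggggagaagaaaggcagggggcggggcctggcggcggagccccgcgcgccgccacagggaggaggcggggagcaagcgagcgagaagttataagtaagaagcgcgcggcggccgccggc
The Klf2 window held 1 such match, CTAAATTTAG, 118 to 109 bases before the RefSeq start. The windows of Klf4, Cyp1b1 and Piezo1 held 0, and 3.20% of 32851 promoters of the same length held at least 1, searched on both strands. The AP-1 letters TGANTCA, to which FOS and JUN proteins bind, had 0 matches in these 4 windows and occurred in 6.75% of all promoters. The letters CACCC, a core that KLF proteins bind, occurred 1 time in Klf2, 0 times in Klf4, 2 times in Cyp1b1 and 1 time in Piezo1, and in 52.0% of all promoters. Nos3 and Thbd had no entry.

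By GENCODE on GRCm38, whose starts differ from those of RefSeq so that the Klf2 window above runs into the gene, Klf2 (ENSMUSG00000055148) spans chr8:72319033-72321656, Klf4 (ENSMUSG00000003032) chr4:55527143-55532466, Nos3 (ENSMUSG00000028978) chr5:24364810-24384474, Thbd (ENSMUSG00000074743) chr2:148404466-148408188, Cyp1b1 (ENSMUSG00000024087) chr17:79701537-79715061 and Piezo1 (ENSMUSG00000014444) chr8:122481698-122551329. Nos3 overlaps Atg9b and Gm15587 on the other strand. Piezo1 overlaps Ctu2 and Gm20388 on the other strand and Gm26497 on its own, so UMIs of that stretch can be uncertain for Piezo1.

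The first comparison asked how the level of each gene differed between sorted ECs of the 4 ages. Klf2, Klf4 and Thbd were higher at each later age, whereas Nos3 was lower at P8 than at E13.5 and Piezo1 followed no order. The larger differences lay between sorted E15.5 and E18.5 ECs, where Klf2 was 2.86-fold, Klf4 3.52-fold and Thbd 5.92-fold higher. Fos and Jun, the pair used as a sign of dissociation stress, were higher over the same interval by 2.44 and 2.26 on the log2 scale. The E18.5 ECs of both whole lungs, given below, lay nearer to sorted E15.5 for Klf2 and Klf4 and nearer to sorted E18.5 for Thbd.

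From E13.5 to P8 Klf2 stood at 494 CPM (463 to 528), 738 CPM (733 to 744), 2111 CPM (2099 to 2123) and 3324 CPM (3309 to 3338). None of these intervals overlapped. Without droplets holding markers of another lineage, the E13.5 value was 586 CPM over 166 ECs. Klf4 had 102 CPM (87.4 to 117), 140 CPM, 494 CPM and 1022 CPM (1014 to 1030) in the same order. The order of the ages was thus the same for both factors, and from E18.5 to P8 Klf4 was 2.07-fold and Klf2 1.57-fold higher. In the whole lungs Klf2 stood at 737 CPM (725 to 748) in the library labelled control and at 938 CPM in that labelled null, and Klf4 at 225 and 239 CPM. At E18.5 the sorted ECs therefore had more Klf2 and Klf4 than ECs of either whole lung. Set against sorted E15.5 ECs, the E18.5 whole lung labelled control was near even for Klf2, with 737 against 738 CPM. Klf2 of the library labelled null and Klf4 of both whole lungs were above the E15.5 values. The part of preparation in the difference between sorted E15.5 and E18.5 ECs was not tested.

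Over the 4 ages Thbd had 26.1 CPM (19.2 to 34.7), 30.3 CPM (29.2 to 31.5), 182 CPM (179 to 186) and 264 CPM (260 to 268). The first pair of ages had overlapping intervals and the later ones did not. ECs of the whole lungs held 139 CPM (134 to 144) of Thbd in the library labelled control and 135 CPM (131 to 139) in that labelled null.

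Nos3 stood at 71.0 CPM (59.3 to 84.5), 52.2 CPM (50.8 to 53.7), 49.6 CPM (47.8 to 51.4) and 37.7 CPM (36.2 to 39.3) from E13.5 to P8, and at 41.6 CPM (38.8 to 44.4) and 39.1 CPM (37.0 to 41.2) in the whole lungs labelled control and null. The intervals of E15.5 and E18.5 overlapped, as did those of P8 and of both whole lungs. Piezo1, the mechanosensitive cation channel, had 47.2, 36.0, 46.2 and 40.3 CPM from E13.5 to P8 and 56.9 and 48.5 CPM in the whole lungs labelled control and null. Its levels followed no order of age, and the E13.5 interval (37.7 to 58.3) took in those of E18.5 and P8.

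Cyp1b1 was close to undetected in ECs. Its level was 2.22, 1.64, 0.482 and 0.178 CPM from E13.5 to P8, from 4, 156, 29 and 11 UMIs, and 0.868 and 1.56 CPM in the whole lungs labelled control and null. Mesenchymal cells, with no Pecam1 or Cdh5 UMI and at least 10 collagen UMIs, held 11.9, 18.8 and 19.3 CPM in the first 3 sorted libraries, so the EC level was below that of these neighbours. Within ECs at E15.5 it lay at 9.14 CPM in those with at least 10 Eln UMIs and at 0.296 CPM in the rest. The mesenchymal markers of the former summed to 2207 CPM, and their part in this value was not tested.

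**Figure D1:**
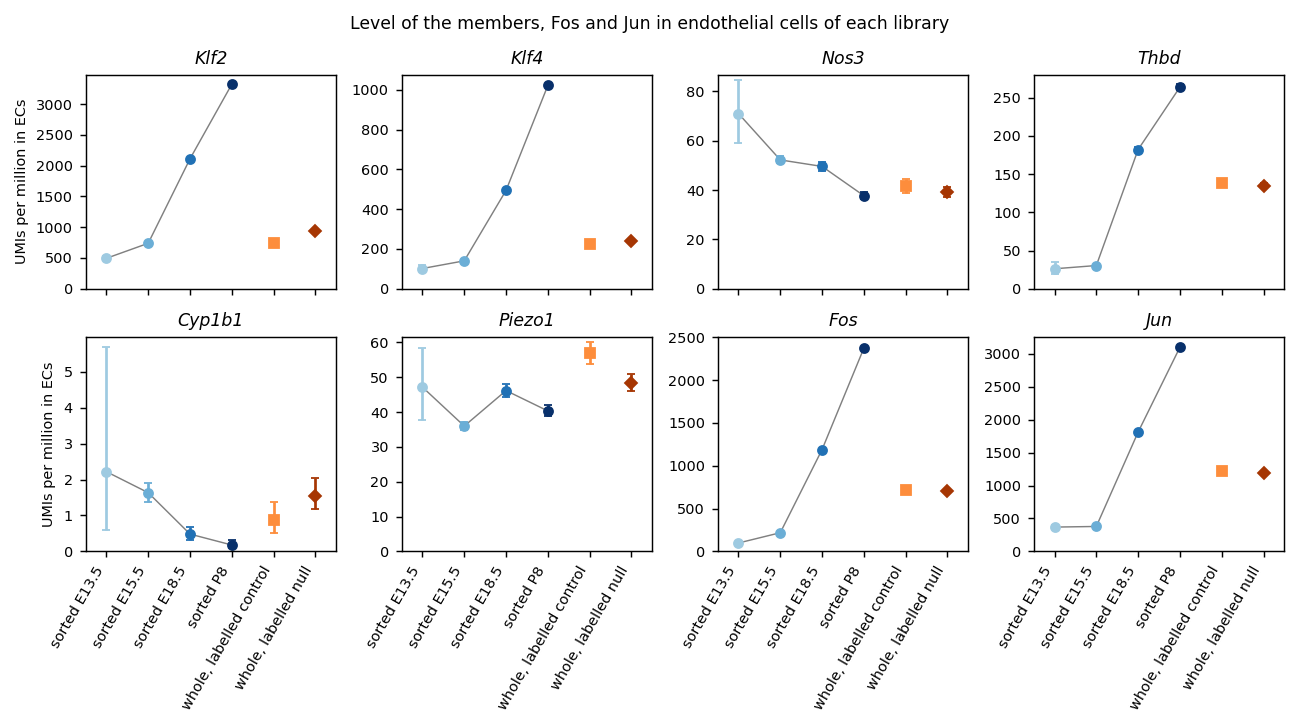
Level of the 6 members, of Fos and of Jun in ECs of each library, in CPM, with exact 95% Poisson intervals that cover counting error only (1 library per condition). Klf2, Klf4, Thbd, Fos and Jun are highest at P8 (Klf2 at 3324 CPM), Nos3 is highest at E13.5, and Cyp1b1 does not exceed 2.22 CPM.

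Counted against all genes of at least 20 CPM, 0 of 5 members (Cyp1b1 did not reach that level) lay 2-fold apart between E13.5 and E15.5, where 2.35% of 6251 genes were at least 2-fold higher and 3.47% at least 2-fold lower at the later age. Between E15.5 and E18.5 Klf2, Klf4 and Thbd, 3 of 5 members, were past 2-fold higher, beside 9.37% of genes higher and 4.34% lower. From E18.5 to P8 only Klf4, 1 of 5, was past it, beside 4.22% higher and 3.96% lower. The members' median log2 ratio was 0.21, 1.52 and 0.53 over the 3 intervals, and that of all genes -0.07, 0.18 and 0.06.

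The ages also differ in which ECs the sort returned, so the levels were taken within exclusive classes that pass 1 threshold and no other (Eln of at least 10 UMIs, with or without Gja4; Gja4, Gpihbp1 or Car4 of at least 2 UMIs; or none). Eln encodes elastin of the large artery wall, Gja4 the arterial connexin 37, Gpihbp1 the capillary anchor of lipoprotein lipase and Car4 a carbonic anhydrase of the alveolar capillary cells called aerocytes. These cuts are ranges of UMI counts and not cell types. At E18.5 717 ECs sat at exactly 2 Gja4 UMIs and 1013 at 1.

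These classes leave out ECs past several thresholds, which were 1528 of 9453 (16.2%) at E15.5, 2531 of 9119 (27.8%) at E18.5 and 5213 of 8259 (63.1%) at P8, so at P8 they hold a minority of ECs. Klf2 was higher at each later age in every class that could be followed. From E15.5 to P8 it stood at 1179, 3343 and 5237 CPM in the Eln class. In the Gja4 class it stood at 972, 2675 and 4615 CPM, in the Gpihbp1 class at 262, 1348 and 2488 CPM, and in ECs past no threshold at 276, 1370 and 2506 CPM. The ECs past several thresholds had 524, 1847 and 3161 CPM. At each of these 3 ages the Eln class was highest and the Gja4 class next. This order turned in the whole lungs labelled control and null. Their Eln class had 1046 and 1446 CPM and their Gja4 class 1697 and 1778 CPM. All Eln ECs of these 2 libraries held a median of 14188 and 15734 UMIs, against 8052 and 8924 in all their ECs. They also held mesenchymal markers, as given below. Without droplets holding markers of another lineage, Eln ECs labelled null had more Klf2 than the other ECs, also given below. The part of such droplets in the turned order was not tested. Fos of the sorted Eln class stood at 293, 2219 and 4780 CPM from E15.5 to P8, against 212, 1154 and 3191 CPM in the Gja4 class. For Klf2 the ratio of P8 to E15.5 was 9.49-fold in the Gpihbp1 class against 4.75-fold in the Gja4 class. Thbd had another shape. At E15.5 it was highest in the Eln class (45.9 CPM, against 33.0 in the Gja4 and 19.5 in the Gpihbp1 class), and at P8 lowest there (108 CPM, against 229 and 265 CPM). The Car4 class, with 265 ECs at E18.5 and 223 at P8, held 499 and 426 CPM of Thbd, above every other class of its library.

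Within the Eln class Nos3 did not move with age and stood at 97.0, 97.9 and 102 CPM from E15.5 to P8. The Gja4 class had 53.9, 69.3 and 66.2 CPM and the Gpihbp1 class 32.8, 22.7 and 28.9 CPM. ECs past no threshold did move, with 30.1, 29.7 and 61.8 CPM. Over the same ages the share of ECs that passed the Eln threshold was 16.0%, 8.81% and 4.82%, while the share past the Gpihbp1 threshold was 27.8%, 46.1% and 73.6%, beside the lower Nos3 level of all ECs. The part of these shares in that level was not tested.

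The split of all ECs by each threshold asked where along the vessel tree the members lay. The first split took ECs of at least 2 Gja4 UMIs against the rest. Klf2, Klf4 and Nos3, 3 of 5 members, were higher in the Gja4 ECs of all 5 libraries with at least 50 ECs on both sides, beside 22.8% of 5249 genes higher and 16.6% lower in all 5. No member was 2-fold higher in all 5, beside 0.381% of genes.

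Klf2 stood at 883 CPM in Gja4 ECs and 316 CPM in the others at E15.5. At the next age it had 2441 and 1408 CPM, and in the P8 library 3473 and 2592 CPM. In the whole lung labelled control the pair of values was 1127 and 573 CPM, and in that labelled null 1261 and 625 CPM. The log2 ratios were 1.48, 0.79, 0.42, 0.98 and 1.01 in that order, so in this split the gap was widest at E15.5 and narrowest at P8. Klf4 differed by less, with log2 ratios of 1.15, 0.32, 0.20, 0.32 and 0.43. Fos differed by 0.15 to 0.37 and Jun by -0.16 to 0.20 on the log2 scale over these 5 libraries. Among ECs with at most 3 Fos and Jun UMIs of 2000 the Klf2 ratios were 1.53, 1.06, 0.37, 0.90 and 1.04. Set against ECs past no threshold, the exclusive Gja4 class had Klf2 ratios of 1.81, 0.97, 0.88, 1.69 and 1.78. The P8 gap was then close to that of sorted E18.5. In that comparison Fos ratios were 0.30, 0.28, 0.78, -0.56 and -0.34, and Jun ratios -0.13, -0.09, 0.47, 0.06 and -0.20.

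Nos3 in Gja4 ECs stood at 57.9, 61.1 and 39.6 CPM from E15.5 to P8, and in the others at 35.8, 25.1 and 28.5 CPM. In the whole lungs labelled control and null the Gja4 ECs had 55.7 and 50.9 CPM and the others 35.6 and 27.7 CPM. Nos3 was thus higher on the Gja4 side of this split in each library, with log2 ratios of 0.47 to 1.27. Set against ECs past no threshold, the exclusive Gja4 class had Nos3 ratios of 0.83, 1.21 and 0.10 from E15.5 to P8. Those of the whole lungs labelled control and null were 1.22 and 1.55. The P8 values were thus near even there, with 66.2 against 61.8 CPM. Thbd changed side with age. At E15.5 it had 32.4 CPM in Gja4 ECs and 24.3 CPM in the others, whereas in the E18.5 library the values were 143 and 266.5 CPM, and in the P8 library 255 and 308 CPM. Both whole lungs at E18.5 had the lower value in Gja4 ECs too, with 98.9 against 155 CPM in the library labelled control and 103 against 166 CPM in that labelled null. Piezo1 ratios lay between -0.31 and 0.19.

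ECs of at least 2 Gpihbp1 UMIs gave the converse pattern. Klf2, Klf4 and Nos3, 3 of 5 members, were lower in Gpihbp1 ECs of all 5 libraries, beside 27% of 5281 genes lower and 21.8% higher in all 5, and 0 members were 2-fold lower in all 5, beside 1.17% of genes. Klf2 ratios were -1.11, -0.63 and -0.48 from E15.5 to P8, and -0.67 and -0.84 in the whole lungs labelled control and null. Nos3 ratios were -0.58, -1.02, -1.10, -0.71 and -0.56 in the same order. Thbd was lower in Gpihbp1 ECs at E15.5, by a log2 ratio of -0.61, and higher in the other 4 libraries, by 0.43, 0.19, 0.34 and 0.41. Fos ratios were -0.08 at E15.5 and -0.35 to -0.78 in the others, beside the lower Klf2. The other ECs include the Gja4 and Eln classes. Set against ECs past no threshold, the exclusive Gpihbp1 class had Klf2 ratios of -0.08, -0.02 and -0.01 from E15.5 to P8 and 0.27 and 0.34 in the whole lungs labelled control and null, so the lower Klf2 was not kept. Nos3 ratios in that comparison were 0.12, -0.38 and -1.08 from E15.5 to P8, and 0.15 and 0.48 in the whole lungs labelled control and null, so Nos3 stayed lower in the sorted E18.5 and P8 libraries and not in the other 3. Thbd had -0.38, -0.22, -0.23, 0.20 and 0.04 in the same order, so in the sorted libraries its change of side was not kept. Klf4 alone was on the lower side in all 5, by -0.01 at E15.5 and by -0.15 to -0.35 in the others.

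The Eln split separated ECs of at least 10 Eln UMIs. Nos3 alone, 1 of 5 members, was higher in Eln ECs of all 5 libraries, beside 16.5% of 5412 genes higher and 22.6% lower in all 5, and no member was 2-fold higher in all 5, beside 1.68% of genes. Nos3 in Eln ECs stood at 90.3, 91.8 and 90.6 CPM from E15.5 to P8 and in the others at 45.5, 43.6 and 34.2 CPM, so the Eln ECs held a like level at these 3 ages. In the whole lungs labelled control and null it stood at 48.0 and 41.1 CPM in Eln ECs and at 40.3 and 38.6 CPM in the others. With the threshold doubled to 20 UMIs the library labelled control turned to 39.3 against 41.9 CPM, and 0 members were higher in all 5. Klf2 was higher in Eln ECs of the sorted libraries, with 1092 against 675 CPM, 3206 against 1955 CPM and 4834 against 3224 CPM from E15.5 to P8, and near even in the whole lungs, with log2 ratios of -0.12 and 0.16. Set against ECs past no threshold, the exclusive Eln class of the whole lungs labelled control and null, with 94 and 213 ECs, had Klf2 ratios of 0.99 and 1.48, so the direction in the library labelled control turned. Fos was higher in Eln ECs of all 5, by 0.55 to 1.67, and among ECs with at most 3 Fos and Jun UMIs of 2000 the Klf2 ratios were 0.71, 0.34, 0.14, -0.41 and 0.56 in the order given. The mesenchymal markers summed to 2660 and 3271 CPM in Eln ECs of the whole lungs labelled control and null, against 357 to 2207 CPM in the sorted libraries. Without droplets holding markers of another lineage, the library labelled null had 124 Eln ECs with 2564 CPM of Klf2 against 988 CPM in the others, a log2 ratio of 1.38, and its Nos3 ratio was 0.89. The library labelled control then had fewer than 50 Eln ECs and gave no value.

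Car4 ECs, of at least 2 Car4 UMIs, numbered 852 and 1783 in the sorted E18.5 and P8 libraries, and 57 and 204 in the whole lungs labelled control and null. Of these, 265, 223, 18 and 38 in the same order passed no other threshold, so most Car4 ECs also lie in another split. The median Car4 EC held 7212.5 UMIs at sorted E18.5 and 10156 at P8, against 5682 and 5667 in all ECs. Thbd, 1 of 5 members, was higher in Car4 ECs of all 4 libraries, beside 22.4% of 5667 genes, and 0 members were 2-fold higher in all 4, beside 0.9%. In Car4 ECs Thbd stood at 356 CPM (sorted E18.5), 310 CPM (P8), 329 CPM (labelled control) and 274 CPM (labelled null), and in the others at 159, 241, 131 and 123 CPM. The 3 E18.5 libraries differed by log2 ratios of 1.15 to 1.32 and P8 by 0.36. Klf2 and Nos3, 2 of 5, were lower in Car4 ECs of all 4, beside 25.5% of genes. Their ratios were -0.21 to -0.66 for Klf2 and -0.53 to -1.08 for Nos3. Set against ECs past no threshold, the exclusive Car4 class had Klf2 ratios of 0.12 and 0.07 in the sorted E18.5 and P8 libraries, so the lower Klf2 is not kept there.

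**Figure D2:**
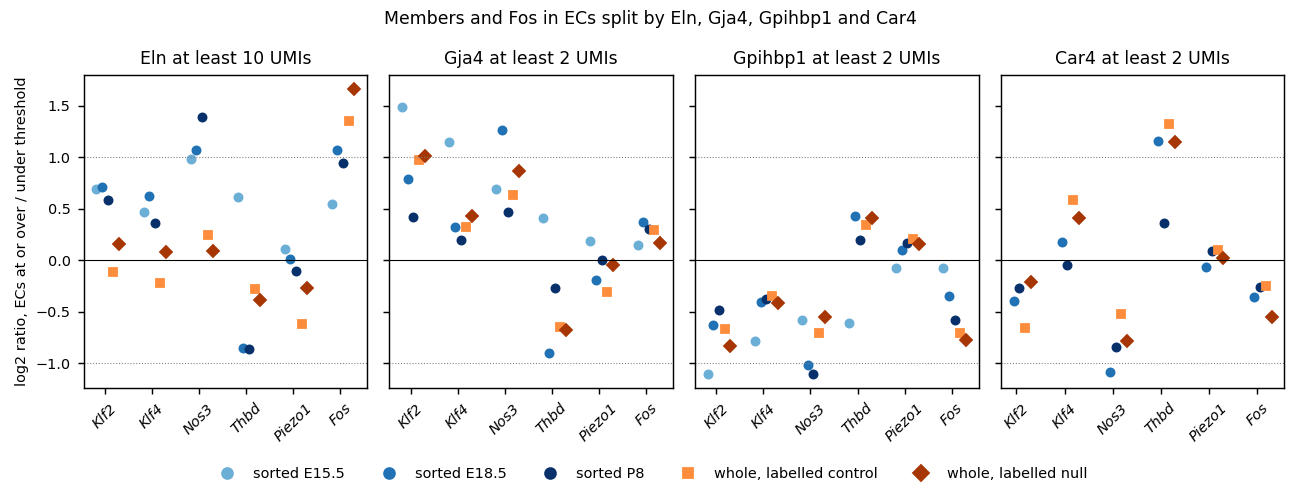
Log2 ratio of the level in ECs at or over a UMI threshold to that in the other ECs of the same library, for the Eln, Gja4, Gpihbp1 and Car4 thresholds (1 panel each), in libraries with at least 50 ECs on both sides. Each point is 1 library and dotted lines mark 2-fold. Klf2 and Nos3 lie above 0 for Gja4 and below 0 for Gpihbp1 in all 5 libraries, and Thbd at E15.5 lies on the other side of 0 from Thbd at E18.5 in the Eln, Gja4 and Gpihbp1 panels.

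As a check on dissociation stress, each EC was thinned to 2000 UMIs and the ECs were grouped by their Fos and Jun UMIs together. The median EC had 1, 1, 4 and 9 such UMIs from E13.5 to P8 and 3 in both whole lungs. From E15.5 to P8 the ECs with 10 or more numbered 13, 1652 and 3835, and those with 0 numbered 4026, 764 and 143. Stress UMIs and age therefore moved together in the sorted libraries.

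Within each library Klf2 and Klf4 were higher in every step from fewer to more Fos and Jun UMIs, among groups of at least 50 ECs. At E18.5 Klf2 stood at 1124, 1589, 2134 and 3191 CPM in ECs with 0, 1 to 3, 4 to 9 and 10 or more. At P8 it stood at 1602, 2130, 2842 and 3985 CPM. At E15.5 the first 3 groups had 623, 782 and 1071 CPM, and at E13.5 the first pair had 423 and 551 CPM. The whole lung labelled control had 497, 667, 826 and 1126 CPM, and that labelled null 806, 838, 1054 and 1203 CPM. At E13.5 this rests on 2 groups of 102 and 101 ECs.

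The age order of the sorted libraries was kept when ECs of like Fos and Jun count were compared. ECs with 0 such UMIs held 423, 623, 1124 and 1602 CPM of Klf2 from E13.5 to P8 and 74.0, 112, 236 and 487 CPM of Klf4. Their Fos level still differed between the libraries, at 63.6, 91.1, 78.6 and 138 CPM, as did Jun at 166, 210, 340 and 482 CPM, since thinning leaves UMIs uncounted. Among ECs with at most 3 such UMIs the difference between E15.5 and E18.5 was 1.07 for Klf2 and 1.27 for Klf4 on the log2 scale, against 1.52 and 1.82 in all ECs. From E18.5 to P8 it was 0.48 and 0.99, against 0.65 and 1.05, so that Klf4 came to lie just under 2-fold and 0 of 5 members were past it.

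Thbd had no gradient common to the libraries, and Nos3 was lower at each step over the first 3 groups in the 5 libraries with 3 or more groups of at least 50 ECs. At E13.5 both were higher in the second of the 2 groups, with 19.5 and 29.3 CPM of Thbd and 59.7 and 77.8 CPM of Nos3, and the intervals overlapped. In the same 4 groups the sorted E18.5 library had 145, 176, 193 and 179 CPM of Thbd, higher over the first 3, and the P8 library 259, 277, 265.5 and 258 CPM. ECs of at most 3 Fos and Jun UMIs had a Thbd difference of 2.47 between E15.5 and E18.5, against 2.57 in all ECs. Nos3 at E15.5 stood at 55.2, 50.4 and 48.7 CPM in the first 3 groups, the latter pair with overlapping intervals. In all 4 groups the sorted E18.5 library had 58.0, 51.1, 45.8 and 51.9 CPM of Nos3, and the P8 library 54.6, 37.9, 32.9 and 40.6 CPM. The whole lung labelled control had 51.5, 45.8, 35.4 and 30.7 CPM of Nos3 and that labelled null 47.7, 41.7, 36.1 and 24.1 CPM. The group of 10 or more was thus above the group before it in the sorted libraries and below it in the whole lungs.

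ECs of 10 or more against those of at most 3 gave log2 ratios for Klf2 of 1.09 and 0.94 in the sorted E18.5 and P8 libraries, and 0.84 and 0.53 in the whole lungs labelled control and null. Klf4 ratios were 1.28, 0.93, 0.64 and 0.51. Klf2 and Klf4, 2 of 5 members, were higher in all 4 libraries, beside 12.3% of 5674 genes, 0 were 2-fold higher in all 4, beside 0.388%, and Piezo1, 1 of 5, was lower in all 4 by -0.23 to -0.75, beside 29.9% of genes. Without droplets holding another lineage's markers the Klf2 ratios were 1.12, 0.93, 1.35 and 1.40, so the whole-lung values were then above those of the sorted libraries.

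**Figure D3:**
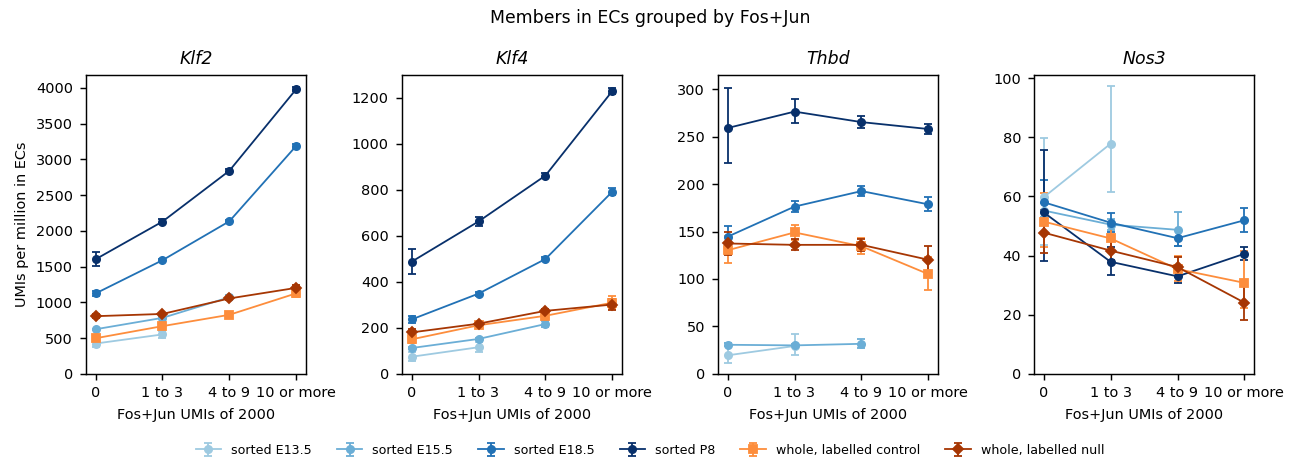
Level of Klf2, Klf4, Thbd and Nos3, in CPM, in ECs grouped by their Fos and Jun UMIs after thinning to 2000 UMIs (0, 1 to 3, 4 to 9, and 10 or more), with 1 line per library and groups of at least 50 ECs. Klf2 and Klf4 climb along the axis in each library and the sorted P8 line is highest (1602 to 3985 CPM for Klf2), while Thbd shows no direction common to the libraries and Nos3 is lower over the first 3 groups in all but the E13.5 library.

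Mesenchymal cells of the same libraries give the level outside ECs. Klf2 stood there at 48.8, 222, 1149 and 671 CPM from E13.5 to P8, in 10595, 1813, 236 and 58 cells, and at 142 and 219 CPM in the whole lungs labelled control and null. Its level was thus below that of ECs in every library, yet it was also far higher at E18.5 and P8 than at E13.5 or E15.5. Fos of these mesenchymal cells stood at 495, 1166, 4177 and 3001 CPM. The part of stress in the mesenchymal Klf2 level was not tested. Nos3 had 0.466 to 4.37 CPM in mesenchymal cells and Klf2 24.5 and 26.5 CPM in the epithelial cells of the whole lungs labelled control and null. At E13.5 Thbd was lower in ECs (26.1 CPM) than in mesenchymal cells (41.1 CPM).

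After thinning to 2000 UMIs, Klf2 was found in 50.5% (43.5 to 57.5), 59.1% (58.1 to 60.1), 84.7% (83.9 to 85.4) and 95.4% (94.9 to 95.9) of ECs from E13.5 to P8. The unthinned shares were 73.3%, 84.0%, 93.6% and 98.2%. In the whole lungs labelled control and null the thinned share was 54.9% and 62.3%, and in mesenchymal cells it was 7.07% at E13.5, 58.1% at E18.5 and 16.6% and 22.9% in the whole lungs. Thbd was found in 3.85%, 6.33%, 28.5% and 38.4% of thinned ECs over age. The E13.5 share was below the 8.31% of mesenchymal cells. In the whole lungs labelled control and null Thbd was found in 24.8% and 22.0% of ECs and in 1.58% and 0.244% of epithelial cells. Nos3 was found in 12.5%, 11.1%, 9.40% and 7.16%, beside 0% to 1.17% of mesenchymal cells.

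Klf2 and Klf4 were found in the same EC more often than the product of their shares. At E15.5 17.9% of thinned ECs held both, where the product was 13.6%, and at E18.5 48.0%, where it was 44.2%. The gap was smaller at P8, with 74.7% and a product of 73.2%. There Klf2 was found in 95.4% and Klf4 in 76.7% of thinned ECs, so the share of both could not exceed 76.7%. The smaller gap is therefore not read as a weaker link. At P8 Klf4 was found in 78.3% of ECs with Klf2 and 44.7% of those without. The values were 56.6% and 27.5% at E18.5, and 30.3% and 12.4% at E15.5. At E13.5 the share was 12.5%, and its interval (8.33% to 17.8%) took in the product of 8.49%. Over thinned ECs of single libraries Spearman's rho of Klf2 with Klf4 was 0.26 to 0.38. That of Klf2 with Fos was 0.00, 0.08, 0.30 and 0.35 from E13.5 to P8, and 0.12 and 0.10 in the whole lungs labelled control and null. With Jun it was 0.17, 0.12, 0.27 and 0.33, and 0.16 and 0.12. Fos was sparse in E13.5 ECs, at 98.2 CPM, which limits its rho there. Cells of 1 library share their depth and handling, so these coefficients are descriptions with no p. Klf2 with Nos3 or Thbd had -0.01 to 0.09, which in sparse counts is no finding.

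The whole-lung pair addressed the question of the Cxcl12 genotype, with the conflict between label and Cxcl12 level given above. In ECs 0 of 5 members were 2-fold apart, beside 0.216% of 6477 genes higher and 0.494% lower in the library labelled null. The log2 ratio of labelled null to labelled control was 0.35 for Klf2, 0.09 for Klf4, -0.09 for Nos3, -0.04 for Thbd and -0.23 for Piezo1. Fos and Jun differed by -0.00 and -0.03. The summed levels of markers of 3 other lineages were lower in ECs labelled null than in ECs labelled control. They were 386 against 1328 CPM for 5 epithelial, 596 against 1257 CPM for 4 immune and 454 against 1513 CPM for 3 erythroid genes. The sum of the 8 mesenchymal markers was higher, with 833 against 570 CPM. Single genes of a list need not follow its sum. The part of these markers in the Klf2 ratio was not tested. The Klf2 ratio was 0.06 with counts adjusted for free RNA, from 1037 against 994 CPM. The adjusted counts held 18.5% fewer UMIs for the library labelled null and 40.0% fewer for that labelled control. They also lack the gene Gm42418, which the paper calls a likely rRNA. These shares thus include its UMIs, and the adjusted CPM rest on another gene set than the ratio of 0.35. With these counts the ratio was -0.14 for Klf4, -0.39 for Nos3, -0.28 for Thbd and -0.37 for Piezo1, so that Klf4 turned its sign and the others moved down with Klf2.

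The Gja4 threshold was passed by 1485 of 3042 ECs (48.8%) in the library labelled null and by 593 of 2022 (29.3%) in that labelled control. Within Gja4 ECs the Klf2 ratio was 0.16 and within the others 0.12. By exclusive class it was 0.07 for Gja4, 0.05 for Gpihbp1 and -0.02 for ECs past no threshold, and 0.47 for Eln with 213 and 94 ECs. Gja4 itself was 473 and 251 CPM in the libraries labelled null and control, so the classes are set by a gene that differs between them. Mesenchymal Klf2 was higher in the library labelled null as well, by 0.62.

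Sorted and whole-lung ECs of E18.5 were set side by side. Klf2 in sorted ECs was higher by 1.52 and 1.17 on the log2 scale than in the libraries labelled control and null, and Klf4 by 1.13 and 1.04. Thbd was higher by 0.39 and 0.43, Fos by 0.74 in each, and Jun by 0.57 and 0.60. The stress list did not move as 1. Its gene Hspa1a stood at 413 CPM in sorted ECs, against 5.35 and 6.23 CPM in the libraries labelled control and null. Egr1 lay the other way, at 173 against 302 and 282 CPM. Among ECs with 0 Fos and Jun UMIs of 2000 Klf2 stood at 1124 CPM in sorted ECs and at 497 and 806 CPM in the whole lungs, and within the Gja4 class at 2675 against 1697 and 1778 CPM. Counts adjusted for free RNA, which exist for the whole lungs only, gave 994 and 1037 CPM of Klf2 in the libraries labelled control and null. Klf4 then had 285 and 259 CPM and Thbd 170 and 139 CPM. The sorted ECs, without such adjustment, had 2111, 494 and 182 CPM of Klf2, Klf4 and Thbd. The size of these gaps thus depends on the adjustment. Sorting, the Cxcl12-DsRed gate and library handling cannot be told apart here.

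Other pathway genes came from lists of flow sensors, of the MEKK3 to MEF2 arm and of genes known to go up under laminar flow. A last list, called below that of genes that go down, holds genes known to go down under laminar flow or up in disturbed flow. Between E15.5 and E18.5, 8 of 18 genes of the laminar-flow list with at least 20 CPM were at least 2-fold higher and 0 lower, with a median log2 ratio of 0.97 beside 0.18 over all genes, of which 9.37% were 2-fold higher. The list of genes that go down had 3 of 6 higher, 0 lower and a median of 0.92, so both lists lay on the same side. Sensors had 2 of 16 and the kinase arm 2 of 6 at least 2-fold higher, and 0 lower. Dissociation stress genes had 17 of 18 at least 2-fold higher and a median of 1.74. The highest ratios on the flow lists were those of Ace, angiotensin-converting enzyme of the capillary surface (47.5 to 551 CPM), of Slco2a1, a prostaglandin transporter (29.3 to 262 CPM), and of Klf9, a glucocorticoid-induced factor of the same family (4.67 to 42.5 CPM). In the kinase arm Map3k3, which encodes MEKK3, stood at 16.1 and 34.7 CPM and Hdac5, a repressor of MEF2, at 11.3 and 23.8 CPM. Mef2c, a MEF2 factor, had 342 and 229 CPM, lower by less than 2-fold.

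Between E13.5 and E15.5 each of the 4 flow lists had at most 1 gene 2-fold higher and 1 lower, beside 2.35% of all genes higher and 3.47% lower. Cav1, the caveolar coat protein (299 to 910 CPM), Ctgf, a matrix-associated growth factor (8.88 to 20.1 CPM), and Slco2a1 (13.3 to 29.3 CPM) were higher. Gja5, the arterial connexin 40 (179 to 45.1 CPM), Vwf, von Willebrand factor (281 to 108 CPM), and Pkd2, polycystin 2 (45.5 to 19.3 CPM), were lower, and stress genes had 7 of 17 higher. From E18.5 to P8 the laminar-flow list had 3 of 18 higher and 3 lower with a median of 0.25, the list of genes that go down had 2 of 7 higher and 0 lower with a median of 0.43, and stress genes had 7 of 18 higher and 0 lower, beside 4.22% and 3.96% of all genes. Klf9 (42.5 to 113 CPM) and P2rx4, an ATP-gated channel (17.5 to 41.9 CPM), were higher. Sema7a, a semaphorin (79.3 to 25.1 CPM), Gja5 (103 to 39.5 CPM) and Itpr3, an inositol trisphosphate receptor (64.3 to 28.1 CPM), were lower. Labelled null against labelled control had 0 genes past 2-fold in any of these lists, beside 0.216% of 6477 genes higher and 0.494% lower. With so small a share over all genes, this count says little about the lists.

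Across the splits, and leaving out Gja4, which is itself on the list, 10 of 16 genes of the laminar-flow list were higher in Gja4 ECs of all 5 libraries and 2 lower, with a median ratio of 0.51. In Gpihbp1 ECs 12 of 17 were lower in all 5 and 1 higher, with a median of -0.39. The ECs under the Gpihbp1 threshold include Gja4 and Eln ECs, and the list holds the arterial Gja4 and Gja5. The Gpihbp1 counts are therefore not separate from those of the Gja4 split. The lists were not set against ECs past no threshold, where the lower Klf2 of the Gpihbp1 class was not kept. In the Gja4 and Gpihbp1 splits the list of genes that go down lay the same way as the laminar-flow list. It had 4 of 5 higher in Gja4 ECs and 4 of 5 lower in Gpihbp1 ECs, with medians of 0.64 and -0.67. In the Eln split the lists parted. The laminar-flow list had 5 of 17 higher and 6 lower in Eln ECs of all 5 libraries, with a median of 0.29, whereas the list of genes that go down had 6 of 7 higher, 0 lower and a median of 2.02, beside 16.5% of all genes higher and 22.6% lower. Vcam1, a leukocyte adhesion molecule, Ctgf and Vwf of the latter list were 2-fold higher in all 5, beside 1.68% of all genes, and are named after their values were seen. The mesenchymal markers in Eln ECs are given above, and their part in these ratios was not tested. In Car4 ECs of 4 libraries the laminar-flow list had 6 of 18 higher and 8 lower, with a median of -0.01, and the list of genes that go down had 0 of 5 higher and 3 lower, with a median of -0.70, beside 22.4% of all genes higher and 25.5% lower. Over all genes 22.8% were higher and 16.6% lower in Gja4 ECs of all 5, and 27% lower and 21.8% higher in Gpihbp1 ECs. Of 16 stress genes, 7 were higher and 1 lower in Gja4 ECs, and 9 were lower and 0 higher in Gpihbp1 ECs. In Eln ECs 8 were higher and 0 lower, with a median of 0.47. ECs of 10 or more Fos and Jun UMIs were also set against those of at most 3. There the list of genes that go down had 5 of 6 higher in all 4 libraries, 1 lower and a median of 0.68. Of these, 2 were 2-fold higher in all 4, beside 0.388% of all genes. The laminar-flow list had 6 of 18 higher and 6 lower and a median of 0.04, beside 12.3% of all genes higher and 29.9% lower.

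**Figure D4:**
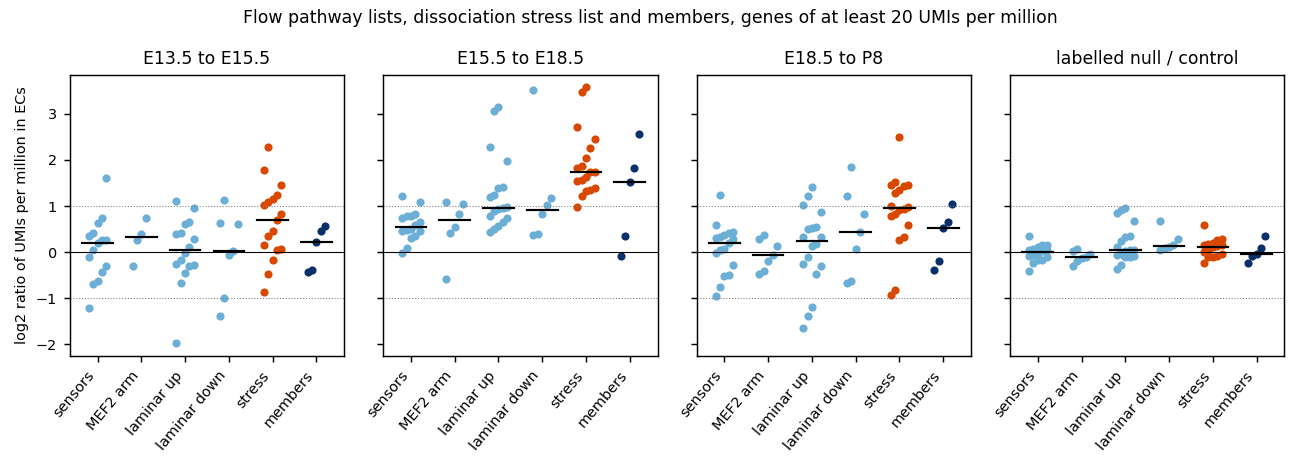
Log2 ratio of each list gene of at least 20 CPM between neighbouring ages of sorted ECs and between the whole lungs labelled null and control, by list, with medians as black bars. Between E15.5 and E18.5 the median is 0.97 for genes of the laminar-flow list and 1.74 for dissociation stress genes. Between the whole lungs every list lies within 2-fold, where 0.216% of all genes are at least 2-fold higher and 0.494% lower.

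Genes with the pattern most like each member were ranked by Pearson's r of log2 CPM over 23 class-by-library points among 6330 genes. The points share libraries and differ in depth, and r is a description only. For Klf2 these were Klf4, Rhob and Epas1, each with r of 0.934, where r with Fos was 0.80. For Klf4 they were Tmod3 (0.970), Dusp1 (0.967) and Itm2b (0.955), and r with Fos was 0.88 and with Jun 0.92. Dusp1 is also on the list of dissociation stress genes. For Nos3 they were Ccdc80 (0.941), Bmx (0.935) and Nxn (0.931), and r with Fos was 0.09. For Thbd they were Gpr146 (0.971), Arhgef12 (0.965) and Gstm1 (0.964), and r with Fos was 0.70 and with Jun 0.83. Piezo1 had a looser match, with Map4k2 at 0.783, Stt3b at 0.762 and Mbd6 at 0.742, and for the sparse Cyp1b1 they were Lox (0.912), Mmp2 (0.878) and Snhg18 (0.877).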

How the data were processed

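Lung cells of 6 libraries were grouped by the labels, with 1 library per condition. The authors sequenced 3′ ends with v3 chemistry, ran CellRanger on mm10 and deposited counts, which are UMIs per gene and cell with no normalization. The submitters' notes name Cell Ranger 3.1 and Seurat 3.2.2. A second form of the whole-lung data, deposited in the unit of expected counts, had been corrected for free RNA by SoupX and served here only as an alternative. Fos was among the genes the authors used for that adjustment, so adjusted Fos values are not read.

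The limits on cells were a mitochondrial share of 0.5% to 10% and a minimum of 700 genes. ECs had at least 2 UMIs of Pecam1 and Cdh5. Summed UMIs gave CPM, and log2 ratios add 0.5 CPM. With 1 library per condition no model was fitted. A gene was called at 2-fold among genes of at least 20 CPM on 1 side, and splits needed 50 ECs on each side. UMI thresholds depend on depth, and so thinned cells and doubled thresholds were alternatives. For shares and for Fos and Jun groups cells were thinned to 2000 UMIs with seed 1. No doublet caller was run. Droplets with markers of another lineage and those over 20000 UMIs were left out as alternatives. The depth of 63746333 to 117522172 UMIs per library gives the 95% intervals. The counting of 2-fold genes was tested on simulated data. Promoter letters and gene spans came from RefSeq (GRCm38.p6) and GENCODE M21. Python 3.11.15, numpy 2.4.6, scipy 1.17.1 and matplotlib 3.10.9 were used.

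The named genes were the members, Fos, Jun, Cxcl12, up to 3 flow-list genes in each direction with the largest ratio past 2-fold, and the 3 genes most like each member. A gene that this rule names is not reported here. Map3k3, Hdac5, Mef2c and Gja4 values were added after they had been seen, as were those of Hspa1a, Egr1, Sftpc, Hbb-bs and Top2a. Members and lists were chosen with earlier results of these data known. There were 15 alternative settings, and 1 more was added after the data had been seen, without the barcodes that the whole lungs share.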

Additional observations from a re-analysis of the deposited data

Results flagged for a closer look

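Thbd took opposite sides in different libraries under 3 of the splits, by at least 0.25 on the log2 scale each way. For Eln ECs against the others the log2 ratio was 0.62, -0.85 and -0.87 from E15.5 to P8, and -0.28 and -0.39 in the whole lungs labelled control and null. For Gja4 ECs the ratio was 0.41, -0.90 and -0.27 from E15.5 to P8, and -0.65 and -0.68 in the whole lungs labelled control and null. For Gpihbp1 ECs the sign was the other way, with -0.61 at E15.5, then 0.43 at the next age, and 0.34 and 0.41 in the whole lungs labelled control and null. Set against ECs past no threshold, the exclusive Gpihbp1 class had Thbd ratios of -0.38, -0.22 and -0.23 from E15.5 to P8 and 0.20 and 0.04 in the whole lungs in that order, so the change of side between the sorted libraries was not kept there. The difference between the libraries was not tested, since each has no replicate. Among ECs with at most 3 Fos and Jun UMIs of 2000 the Gja4 ratios of Thbd were 0.42 at E15.5 and -0.89 at E18.5, and without droplets holding another lineage's markers they were 0.41 and -0.91.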

How the results depend on the processing

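No paired analysis was possible because each condition had 1 library. Of the counts of members past 2-fold or on 1 side in every library, 222 stayed within 1.5 times the value reported and 13 moved. With ECs of at most 3 Fos and Jun UMIs, members past 2-fold were 0 and not 1 from E18.5 to P8 (Klf4 came to lie just under it) and 1 and not 0 in the Car4 split (Nos3, over 3 libraries, because the whole lung labelled control then had under 50 Car4 ECs). Members higher in Eln ECs of every library were 1 as reported, 0 with the threshold doubled, 2 with mean CPM per cell, thinned cells or no ECs over 20000 UMIs (Klf2 joined Nos3), 3 for exclusive classes against ECs past no threshold (Klf4 joined too), and 3 without other lineages, there over 4 libraries since that labelled control, where both Klf2 and Klf4 were lower in the value reported, gave none. With exclusive classes, members lower in Gpihbp1 ECs were 1 and not 3, and the mean Klf2 ratio reversed to 0.10 in the Gpihbp1 split and to 0.095 in the Car4 split. Members higher in Car4 ECs were 2 and not 1 with at most 3 Fos and Jun UMIs (Klf4 joined, 3 libraries), the doubled threshold (Piezo1 joined, 3 libraries) or exclusive classes (Klf2 joined, 2 libraries), where the 4 reported could not all be used. Members lower in ECs of many Fos and Jun UMIs were 2 and not 1 with mean CPM per cell. Of other values, 497 stayed within their counting interval, 163 moved and these 2 reversed. Within single libraries 68 of 1645 member ratios changed sign, 38 of them for Piezo1, and 13 of the 68 from a ratio of at least 0.25. With no minimum level, the share of all genes past 2-fold was 11.5% and not 5.82% from E13.5 to E15.5, and 1.66% and not 0.710% for labelled null against labelled control. The Klf2 ratio of labelled null to control was 0.35 without shared barcodes. The cause was not tested. Depth limits Cyp1b1 and the 210 ECs of E13.5.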
